A study of Homo sapiens with 3 samples.

Results

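The 35 genes described here cover fatty acid synthesis, desaturation, storage and oxidation, and were measured in 22RV1 cells carrying hairpins against SPINK1. They were chosen after FADS2 and ACSS2 had been seen lower with these hairpins on these arrays, so the values of the same contrast are given as a description and support nothing. Members were the probes whose gene name on the array was 1 of the 35 genes. They took up 56 of 58201 probes. A probe was kept when well above background in 1 channel on all 3 arrays. At least 1 such probe was found for 33 of the 35 genes, against 17061 of 43317 gene names on the whole array. SCD5, with 4 probes, and ACSL4, with 2 probes, had none, and no ratio is given for them. A probe of each was well above background in some readings only.

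22RV1 is a SPINK1-positive prostate cancer line. Cells transduced with lentiviral particles for 1 of 3 hairpins (22RV1-shSPINK1-1, 22RV1-shSPINK1-2 and 22RV1-shSPINK1-3) were labelled with Cy5, and cells with a scrambled hairpin (22RV1-shSCRM) with Cy3, on 3 two-color Agilent arrays, 1 per hairpin. All lines shared the vector, the transduction and a medium of RPMI-1640 with 10% serum, 0.5% Penicillin Streptomycin and 1 µg/mL Puromycin, and 500 ng of total RNA was labelled per sample after poly(A) tailing. Each hairpin stands for 1 line and 1 array, shSCRM RNA was in Cy3 each time and dyes were not swapped, so a dye effect of a gene and an effect of the hairpins cannot be told apart, and the spread between control cultures is in no error given here.

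Fatty acids are built in the cytosol from acetyl-CoA, which ATP citrate lyase and acetyl-CoA synthetase supply, acetyl-CoA carboxylase commits to the pathway and fatty acid synthase extends. Desaturases and elongases then remodel the chains, acyl-CoA synthetases activate them, and they are either esterified into stored triglyceride or carried into mitochondria by carnitine palmitoyltransferases and shortened by β-oxidation. The transcription factor SREBP-1, the product of SREBF1, drives many of the synthesis genes, and prostate cancer cells are known for active lipid synthesis.

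The windows just before the start sites of the 4 members with the lowest mean ratios (FADS2, SCD, ACSS2 and ELOVL5) and the 2 with the highest (ECHS1 and CPT1A) are shown first, since these genes carry the values that follow. Each is 250 bases, 5′ to 3′ on the strand of the gene, from RefSeq on GRCh38.p14, which held an entry for 31 of the 35 genes. Only 1 start site was taken per gene, and it need not be that of the transcript its probe measures. Capitals mark CCAAT (the NF-Y motif), GGGCGG (Sp1), CACGTG (the E-box) and TCACNCCAC (the core of the sterol regulatory element to which SREBPs bind) on either strand.
FADS2, chr11:61815953-61816202, plus strand: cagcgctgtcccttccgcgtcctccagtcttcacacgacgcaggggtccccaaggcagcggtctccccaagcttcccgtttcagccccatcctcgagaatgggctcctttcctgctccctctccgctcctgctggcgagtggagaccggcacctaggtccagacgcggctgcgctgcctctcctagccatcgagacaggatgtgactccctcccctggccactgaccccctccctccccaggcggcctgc
SCD, chr10:100346983-100347232, plus strand: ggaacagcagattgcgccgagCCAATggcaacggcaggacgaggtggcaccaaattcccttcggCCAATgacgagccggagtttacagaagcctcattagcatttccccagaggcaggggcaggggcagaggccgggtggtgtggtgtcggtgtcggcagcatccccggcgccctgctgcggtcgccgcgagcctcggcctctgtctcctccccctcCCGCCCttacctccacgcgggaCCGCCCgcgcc
ACSS2, chr20:34874739-34874988, plus strand: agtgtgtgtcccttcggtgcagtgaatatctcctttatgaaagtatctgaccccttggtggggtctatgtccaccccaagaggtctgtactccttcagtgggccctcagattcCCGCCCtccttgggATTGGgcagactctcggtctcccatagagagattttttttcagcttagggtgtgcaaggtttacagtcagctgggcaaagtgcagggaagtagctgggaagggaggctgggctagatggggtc
ELOVL5, chr6:53348951-53349200, minus strand: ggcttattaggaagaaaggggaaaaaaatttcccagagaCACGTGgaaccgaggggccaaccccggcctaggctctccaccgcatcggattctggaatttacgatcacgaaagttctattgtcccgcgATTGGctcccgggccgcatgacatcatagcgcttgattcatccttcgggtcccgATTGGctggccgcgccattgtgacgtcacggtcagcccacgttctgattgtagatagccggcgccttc
ECHS1, chr10:133373355-133373604, minus strand: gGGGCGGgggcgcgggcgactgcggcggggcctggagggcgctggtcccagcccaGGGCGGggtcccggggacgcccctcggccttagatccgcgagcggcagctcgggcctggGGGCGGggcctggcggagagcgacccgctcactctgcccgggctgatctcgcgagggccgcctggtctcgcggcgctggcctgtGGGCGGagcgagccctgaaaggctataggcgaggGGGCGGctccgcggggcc
CPT1A, chr11:68844278-68844527, minus strand: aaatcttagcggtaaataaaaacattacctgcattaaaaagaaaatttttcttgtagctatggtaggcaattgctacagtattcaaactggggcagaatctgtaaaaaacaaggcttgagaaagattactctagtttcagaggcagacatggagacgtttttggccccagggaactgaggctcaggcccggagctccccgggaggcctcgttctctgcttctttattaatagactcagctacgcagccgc
CCAAT was found in 7 of the 31 windows (22.6%), against 33.0% of 27305 promoter windows of the same length. All 7 belonged to genes of synthesis, desaturation, elongation or activation: ACLY, ACSS2, SCD, SCD5, ELOVL1, ELOVL5 and ACSL3. The storage and oxidation genes held it in 0 of 12 windows. Of the 6 windows printed, those of SCD and ELOVL5 held it at 2 positions each and that of ACSS2 at 1. GGGCGG was found in 25 of 31 windows (80.6%), against 42.3% of all, and CACGTG in 2 (ELOVL5 and PLIN2), against 6.49% of all. The sterol element core was found in 1 window, that of the lipase gene PNPLA2, against 0.875% of all. It was found in 0 of 16 windows of cholesterol synthesis and uptake genes, which SREBPs also drive. A search for these letters thus cannot show whether SREBPs bind a gene. The windows of FADS2 and CPT1A held none of the 4 motifs, which says only that these letters are absent there. Matches to different motifs overlapped at 1 place in all the windows of the members. A match to a short motif describes a sequence and is not a measured binding site.

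SPINK1 itself was lower with every hairpin, with log2 ratios of -3.71, -3.65 and -3.89 (-3.75 ± 0.12, SD, n = 3; adjusted p = 6.12e-07 by limma). Well above background were 41.3% to 46.8% of gene spots in Cy5 and 38.8% to 42.6% in Cy3, and no gene spot was saturated. The luminal prostate markers KRT8, KRT18, EPCAM, FOXA1, HOXB13, KLK2 and KLK3 were measured, and 0 of 3 basal markers (KRT5, KRT14 and TP63). The mean log2 ratios of the luminal markers named ran from -0.36 (HOXB13) to 0.35 (KRT18). Some markers of cells that a pure line should lack had a probe well above background. These were 3 of 6 for fibroblasts, 2 of 3 for endothelium and 2 of 4 for leukocytes. LUM was among them, with a Cy3 brightness of 416 to 513, while COL1A2, COL3A1, PECAM1 and CD3E were not. LYZ, 1 of the 4 leukocyte markers, had no probe under that name on the array and could not be measured. The mean log2 ratios of the 3 measured fibroblast markers were -0.30 (LUM), -0.28 (DCN) and -0.01 (COL1A1), and those of the 4 measured endothelial and leukocyte markers were 0.01 (CDH5), -0.12 (VWF), -0.07 (PTPRC) and -0.01 (CD14). The part of these cells in the results was not tested. In bulk RNA such as this, fewer cells of a kind and less RNA per cell cannot be told apart.

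Among the 33 measured genes FADS2 and SCD, which encode desaturases, and the acetate-using synthetase gene ACSS2 had the lowest means, and ECHS1 and CPT1A of the oxidation pathway were the highest. A gene was called when its mean log2 ratio was beyond 0.5 and its adjusted p under 0.05 in limma over all genes. By that rule 2 members were called lower, FADS2 and ACSS2, beside 0.393% of all genes, and these are the genes that prompted the list. No member was called higher, beside 0.334% of all genes. Without adjustment for multiple tests (p under 0.05, same size) limma gave 3 lower and 0 higher, beside 0.416% and 0.363% of all genes. A test of each gene on its own spread, without limma's pooling, gave 1 lower and 0 higher, beside 0.299% and 0.281% of all genes. After adjustment that test called 0 of all 17061 genes, SPINK1 included. Both calls were also lost with the log ratios of Agilent's Feature Extraction software and with the authors' table, in which 3 of all genes were called lower and none higher, and 0 members were called when hairpin 1 was left out, where FADS2 averaged -0.45 and ACSS2 -0.45, short of the size. With no requirement on size, limma counted ACSS2, ELOVL5 and FADS2 lower, beside 8.72% of all genes, and ECHS1 higher, beside 4.77%.

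The median log2 ratio of the 33 genes was -0.08, beside -0.01 over all genes, and it was -0.21, -0.03 and -0.06 with hairpins 1, 2 and 3. Without FADS2 and ACSS2 the median was -0.07. Lower on all 3 arrays were 11 members (33.3%), beside 29.0% of all genes, namely ACSS2, FASN, SCD, FADS2, ELOVL5, ELOVL6, ELOVL7, AGPAT2, DGAT2, ACADVL and HADHB. Higher on all 3 arrays were 3 (9.09%), DGAT1, CPT1A and ECHS1, beside 21.3% of all genes. The remaining 19 genes had both signs across the hairpins. The mean lay farther from 0 than its own SD in 13 of 33 genes.

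SREBF1, the regulator, had log2 ratios of -0.63, -0.21 and 0.11 with hairpins 1, 2 and 3 (mean -0.24 ± 0.37, SD, n = 3). With loess the hairpins thus did not share a direction. The Feature Extraction log ratios of SREBF1 were below 0 with each hairpin, at -0.78, -0.43 and -0.15. Its probe, at chr17:17715419-17715478 (hg19), was among the brightest 5% of genes. A second kept probe 115 bases away read 0.08, 0.02 and 0.10, so the 2 probes of SREBF1 differed in sign. The second was far dimmer, with a Cy5 brightness of 66.7 to 89.3 against 6060 to 7580.

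The transcript ratios of the genes that supply acetyl-CoA were uneven. ACSS2, which makes acetyl-CoA from acetate, had log2 ratios of -0.62, -0.37 and -0.53 (-0.51 ± 0.12), or 70.3% of the shSCRM level. Its probe, at chr20:33515343-33515401 (hg19), had a Cy5 brightness of 182, 202 and 173 and a Cy3 brightness of 407, 401 and 398 before normalization. The control channel was thus nearly constant. Cy3 was the brighter channel over all gene spots too, with medians of 32 to 38.2 against 17.7 to 24.2 in Cy5. ACLY, which makes acetyl-CoA from citrate, had a mean of -0.15 ± 0.22, higher with hairpin 2 and lower with the others.

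Fatty acid synthase, FASN, had log2 ratios of -0.53, -0.26 and -0.05 (-0.28 ± 0.24), lower with each hairpin but close to 0 with hairpin 3. Its probe was at chr17:80036216-80036275 (hg19). ACACA, the cytosolic acetyl-CoA carboxylase, read -0.14, 0.18 and 0.12 (0.05 ± 0.17), and its second kept probe averaged -0.08. ACACB, the carboxylase of the mitochondrial surface, averaged -0.04 ± 0.24. ME1, a malic enzyme that supplies NADPH, averaged 0.05 ± 0.15 from a dim probe, at percentile 16.4 of brightness. The 6 genes of supply and synthesis had a median of -0.09, with per-hairpin medians of -0.32, 0.10 and -0.08.

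The lowest means of the whole list were those of the desaturase genes FADS2 and SCD, while that of FADS1 lay nearer 0. FADS2, the Δ6-desaturase that starts polyunsaturated fatty acid synthesis, had log2 ratios of -0.91, -0.55 and -0.36 (-0.61 ± 0.28), or 65.6% of the shSCRM level. Its probe, at chr11:61634754-61634813 (hg19), had a Cy5 brightness of 828, 966 and 1080 against a Cy3 brightness of 2080, 2050 and 2060. Here too the control channel varied little, and the 3 hairpins differed in the Cy5 channel.

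SCD, the stearoyl-CoA desaturase that makes monounsaturated fatty acids, read -1.27, -0.11 and -0.31 (-0.56 ± 0.62). Its SD was the highest of the 33 genes. Its probe, at chr10:102123917-102123976 (hg19), had a Cy5 brightness of 497, 848 and 813 and a Cy3 brightness of 1640, 1320 and 1510, so hairpin 1 was the lowest in Cy5 and the highest in Cy3. Without hairpin 1 its mean was -0.21. FADS1, the Δ5-desaturase, read -0.41, 0.14 and -0.06 (-0.11 ± 0.28), with both signs. FADS1 and FADS2 are neighbours on chromosome 11, on opposite strands, and the start sites taken for them lie 800 bases apart in GRCh38.p14.

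The elongases ranged from -0.34 to 0.01 in the mean, with a median of -0.20. ELOVL5, which lengthens polyunsaturated chains, had log2 ratios of -0.34, -0.35 and -0.34 (-0.34 ± 0.01), or 78.8% of the shSCRM level, from a probe at chr6:53132886-53132945 (hg19). It had the lowest SD of the 33 genes. A second ELOVL5 probe, assigned to another transcript and dim (Cy5 brightness 28.5 with hairpin 1), averaged -0.04 ± 0.08.

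ELOVL6, which lengthens saturated C16 chains, read -0.27, -0.10 and -0.24 (-0.20 ± 0.09). Its second probe averaged -0.14, in the same direction. ELOVL7 had a mean of -0.26 ± 0.17 and was the only elongase with its lowest ratio under hairpin 3. ELOVL1 and ELOVL2 averaged -0.10 and 0.01 and had both signs. The acyl-CoA synthetases, which activate free fatty acids for either fate, lay near 0: ACSL3 read 0.01, -0.07 and 0.08, ACSL1 averaged -0.08 and ACSL5 -0.06.

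The 8 storage and binding genes had a median of -0.06, with means from -0.26 to 0.14. GPAM, the mitochondrial acyltransferase that opens glycerolipid synthesis, read -0.19, 0.08 and -0.21 (-0.11 ± 0.17). AGPAT2, the next acyltransferase, had the lowest mean of the group at -0.26 ± 0.17. LPIN1, a phosphatidate phosphatase, averaged -0.14 ± 0.32, and its SD was the highest of the group.

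The enzymes of the last step of triglyceride synthesis stood on opposite sides of 0. DGAT1 read 0.02, 0.16 and 0.15 (0.11 ± 0.08), but its other kept probes averaged -0.15 and -0.03. DGAT2 read -0.13, -0.24 and -0.19 (-0.19 ± 0.06). The DGAT2 probe was at percentile 29.2 of brightness, and the Feature Extraction log ratio gave it a mean of -0.44. PLIN2, a lipid droplet coat protein, read -0.03, 0.02 and 0.09 from a dim probe (Cy5 brightness 26.2 to 29.3). PNPLA2, the lipase that opens triglyceride breakdown, averaged 0.14 ± 0.28, and its other kept probe averaged -0.17. The fatty acid binding protein gene FABP5 averaged -0.02 ± 0.16.

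Oxidation genes had a median of 0.02. CPT1A, the gatekeeper that loads fatty acids onto carnitine, read 0.07, 0.28 and 0.24 (0.20 ± 0.11), higher with each hairpin, from a probe at chr11:68527063-68527122 (hg19). CPT2, its partner on the inner membrane, averaged -0.04 ± 0.11. ACADVL, the very long-chain acyl-CoA dehydrogenase, averaged -0.19 ± 0.08 and was lower with every hairpin, while ACADM, the medium-chain enzyme, averaged 0.02 ± 0.03.

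ECHS1, the mitochondrial enoyl-CoA hydratase, had the highest mean of the list, with log2 ratios of 0.36, 0.34 and 0.30 (0.33 ± 0.03), or 126% of the shSCRM level. Its probe, at chr10:135176255-135176314 (hg19), was bright, with a Cy5 value of 11600, 9600 and 9040 and a Cy3 value of 11100, 10500 and 10700. Before normalization the 2 channels thus overlapped. It was 1 of 3 members among the brightest 5% of genes, together with SREBF1 and ACADVL. That brightest group of 854 genes had a median log2 ratio of 0.13 here and of -0.01 in the Feature Extraction log ratios, in which ECHS1 averaged 0.17. The part of brightness in this value was not tested.

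HADHA and HADHB encode the subunits of the mitochondrial trifunctional protein and lie head to head on chromosome 2, with start sites 307 bases apart in GRCh38.p14. The 250-base windows before these start sites share 194 bases. HADHA, which is singled out here after its values were seen, read -0.22, 0.73 and -0.06 (0.15 ± 0.51), and the value of hairpin 2 was the highest single ratio of all members. Its probe, at chr2:26415197-26415256 (hg19), had a Cy5 brightness of 539 with hairpin 2 and of 345 and 300 with hairpins 1 and 3. HADHB averaged -0.07 ± 0.06 and read -0.10 with hairpin 2, so these neighbours differed in sign on that array. HADHA had 1 probe, and without hairpin 2 its mean was -0.14.

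Synthesis and desaturation genes (15 measured, SREBF1 included) were set against storage and oxidation genes (15 measured), with the acyl-CoA synthetases on neither side. The median ratio of the synthesis side was -0.32, -0.10 and -0.12 with hairpins 1, 2 and 3, and that of the storage and oxidation side was -0.03, 0.04 and -0.05. The difference was -0.29, -0.13 and -0.07, with a mean of -0.17 ± 0.11 (SD, n = 3). It was below 0 with each hairpin, and smallest with hairpin 3. No test was made, since the list was chosen on this contrast and the arrays share their control. Leaving out FADS2 and ACSS2 gave a mean difference of -0.14. The sides were alike in brightness, with median percentiles of 72.8 and 73.8.

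Hairpin 1 held most of the low values. Below -0.3 with hairpin 1 were 9 of 15 synthesis genes and 2 of 15 storage and oxidation genes, beside 5.74% of all genes. With hairpin 2 these counts were 3 and 1, beside 6.66% of all genes. With hairpin 3 they were 5 and 0, beside 5.12%. Above 0.3 no synthesis gene was found with any hairpin, while 1, 2 and 2 storage and oxidation genes were, with hairpins 1, 2 and 3, beside 3.62%, 4.82% and 3.97% of all genes. The lowest of the 3 ratios came from hairpin 1 in 22 of 33 members (66.7%) and in 12 of the 15 synthesis genes, beside 37.5% of all genes. SCD, SREBF1, FASN, FADS1 and LPIN1 were among these, and ELOVL7 and DGAT2 were not.

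Where a gene had several kept probes they often differed in sign. Of 10 members with more than 1 kept probe, 6 had probes of opposite mean sign: SREBF1, ACACA, LPIN1, DGAT1, PNPLA2 and HADHB. In SREBF1, ACACA, LPIN1 and PNPLA2 the other probe was dim, with a Cy5 brightness of 30.5 to 89.3 against 399 to 7580 for the brightest. That of the other probes of DGAT1 was 38.2 to 105, and of HADHB 219 to 296. The background correction used draws ratios of dim probes toward 0. The dim probes of SREBF1 and PNPLA2 still kept 1 sign with every hairpin, at 0.08, 0.02 and 0.10 and at -0.15, -0.15 and -0.19. Those of ACACA and LPIN1 had both signs. Which probe of a gene reads its transcript better was not tested. The range between probes of a gene ran from 0.06 to 0.31. ELOVL5, ELOVL6, GPAM and FABP5 had probes of 1 sign. FADS2, ACSS2, SCD, FASN, CPT1A and ECHS1 had a single kept probe, so no second probe could be set beside them. For comparison, repeated spots of a probe differed with an SD of 0.0560 to 0.0593 within an array, and the median SD over the arrays was 0.16 for the members and 0.0863 for all genes.

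The scaling of the arrays moved some values. Centring each array on its median in place of loess lowered all genes to a median of -0.23, so its ratios are read relative to that. With loess, Feature Extraction, the authors' table and that centring, 23 of 33 members kept 1 sign. Of the 11 genes lower on all 3 arrays, 10 did, the exception being HADHB, at 0.03 in the authors' table. Of the 3 genes higher on all 3 arrays, CPT1A and ECHS1 did, and DGAT1 did not, at -0.02 in the authors' table and -0.01 relative to all genes after centring. CPT1A was 0.41 in the Feature Extraction log ratios and 0.18 after centring, relative to all genes. FADS2 ranged from -0.73 to -0.61 and ACSS2 from -0.60 to -0.51 over these 4 scalings.

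Other genes of the pathway came from lists that were also drawn up with earlier results known. Of 18 measured regulators of SREBP processing and lipogenesis, 1 was called lower and none higher, beside 0.393% and 0.334% of all genes. Lower on all 3 arrays were 12 (66.7%), beside 29.0% of all genes, and the median was -0.14. At any size 4 of them had an adjusted p under 0.05, all lower (SREBF2, NR1H2, MID1IP1 and USF1), beside 8.72% of all genes. The one called was SREBF2, the gene of the SREBP that favors cholesterol genes, at -0.75, -0.48 and -0.33 (-0.52 ± 0.21; adjusted p = 0.0112 by limma). INSIG1, the endoplasmic reticulum anchor of the SREBP escort and itself a target, read -1.03, -0.41 and -0.11 (-0.52 ± 0.47) and did not pass (adjusted p = 0.0639 by limma). NR1H2, the gene of liver X receptor β, averaged -0.44 ± 0.03 and had an adjusted p of 0.00619 by limma without reaching the size.

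Over all genes 0.393% were called lower and 0.334% higher, and at any size 8.72% were lower and 4.77% higher. Among 23 other synthesis, elongation and desaturation genes none was called, the median was -0.06, and at any size 5 were lower (AACS, ACSF3, IDH1, SLC25A1 and TECR) and 1 was higher (PTPLAD1). Among 27 other uptake, storage and lipolysis genes none was called, the median was -0.07, and at any size 3 were lower (LPIN3, AGPAT1 and PLIN3) and none was higher. Among 37 other genes of mitochondrial and peroxisomal oxidation none was called and the median was -0.03, with 0 lower and 1 higher at any size. That one was ECI2, an enoyl-CoA isomerase, at 0.40 ± 0.08 (adjusted p = 0.00814 by limma). Without adjustment and with the size, limma counted 2 of these 105 genes lower, both regulators, and none higher, beside 0.416% and 0.363% of all genes.

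The genes of cholesterol synthesis and uptake, which SREBPs also drive, were set beside the list as the most alike pathway. All 22 were measured, with a median of -0.36 beside -0.08 for the fatty acid genes. Of these 22 genes 21 were lower on all 3 arrays, beside 29.0% of all genes. Called lower were 2, LSS at -0.80 and IDI1 at -0.57, beside 0.393% of all genes. At any size 13 were lower, beside 8.72% of all genes. The per-hairpin medians were -0.48, -0.28 and -0.24, again lowest with hairpin 1. CCAAT was found in 13 of 16 of their promoter windows (81.2%), against 6 of 15 for synthesis and desaturation genes. The sterol element core was found in 0 of these 16 windows and in 0 of these 15. The difference between the lists was not tested.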

How the data were processed

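RNA of 3 22RV1-shSPINK1 lines was set against 22RV1-shSCRM RNA on 3 two-color arrays. Per the file headers, the deposited array data came from Agilent Feature Extraction 11.5.1.1 with hg19 annotation. The deposited intensity of each spot and its background was not normalized in either channel, whereas the deposited log10 ratio (Cy5 over Cy3) had been background-subtracted and dye-normalized. A further table deposited by the authors held log2 values, 1 per array for each of 43307 gene names.

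Intensities were corrected with normexp (offset 50), which draws dim genes toward 0, and normalized by loess within arrays in limma 3.58.1 (R 4.3.3). Control spots and outlier flags (0.203% of values) were left out and spots of a probe averaged. Probes well above background in 1 channel on all 3 arrays were kept (21442 of 58201), and the brightest stood for its gene (17061 genes). The mean log2 ratio was tested against 0 by limma's moderated statistic, with p-values adjusted over all genes after Benjamini and Hochberg. Calls needed an adjusted p under 0.05 and a mean beyond 0.5. The step was tested on simulated data with independent noise, no dye effect and no shared control, so that test cannot gauge those limits here. Nothing says that the lines came from separate cultures, so p-values measure the spread between these arrays, whose number limits the precision.

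Members and all lists were chosen with earlier results of these data known. Ratios per hairpin were to be given for members that were called, beyond 0.3 or first in their role, and other members by mean or range. Genes of other lists were named when called or among the 3 farthest from 0. Genes outside this rule were named after their values were seen. A luminal marker is not reported here. Alternatives covered background correction, normalization, source of values, filter, probe rule, test, threshold, membership and leaving out each array. Motifs were counted on both strands, in Python 3.11.15, over the 250 bases before each RefSeq start.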

Additional observations from a re-analysis of the deposited data

How the results depend on the processing

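The count of 2 members called lower became 11 with median centring. That centring moved all genes to a median of -0.23 and called 1965 of all 17061 lower. The count was 0 with Feature Extraction log ratios and 0 with the authors' table, each beside 0.0176% of all genes. It was also 0 when each gene was tested on its own spread, which called no gene at all. Leaving out each hairpin gave 0 to 3. The count was 0 without hairpin 1, beside 0.563% of all genes. Without hairpin 2 it was 3 (SCD besides ACSS2 and FADS2), beside 0.404%. Without hairpin 3 it was 1 (FADS2), beside 0.463%. The count of 0 called higher became 1 with no requirement on size, beside 4.77% of all genes. The median of the members, -0.08, was -0.37 with median centring and -0.16 to -0.05 with a hairpin left out. Genes lower on all arrays, 11 in number, became 28 with median centring and 13 to 17 with a hairpin left out, the highest without hairpin 2. Genes higher on all arrays, 3 in number, became 0 with median centring and 4 to 8 with a hairpin left out, 8 without hairpin 1 and 5 without hairpin 3. The cause of these shifts was not tested, except that with a hairpin left out only 2 arrays had to share a sign. The share of all genes lower or higher on all arrays is not given for these alternatives. The counts of shared signs under them are thus not read as a result about the members. The difference between the sides lay between -0.22 and -0.08 over all alternatives and between -0.21 and -0.10 with a hairpin left out. The versions without FADS2 and ACSS2, for the median and for the count lower on all arrays, were chosen after seeing the data. SPINK1 was past the threshold under every alternative but that of each gene tested on its own spread. Each log ratio already paired shSPINK1 with shSCRM RNA on the same array. No further pairing of arrays was possible because only 1 group of arrays exists. A block for slide or scan was not run, since the arrays shared 1 slide and 1 scan. Dim probes limit ME1, PLIN2, ACSL5 and DGAT2.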
